A study of Mus musculus with 12 samples.

Results

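M-MDSC and PMN-MDSC sorted from the spleen after lymphodepletion were compared gene by gene, in 6 of the 12 libraries of the series. M-MDSC are the monocytic and PMN-MDSC the polymorphonuclear (neutrophil-like) myeloid-derived suppressor cells of tumour-bearing mice. The members were chosen by the labels alone: the 3 M-MDSC and the 3 PMN-MDSC libraries whose titles carry the mark LD. All mice were C57BL/6 with established B16 melanomas. The LD mice received cyclophosphamide and fludarabine, drugs that deplete lymphocytes and other dividing blood cells, and their spleens were taken 7 days after treatment. The other 6 libraries are M-MDSC and PMN-MDSC, 3 each, from untreated mice with the same tumours (Ctrl), and they share no library with the LD comparison. Both populations were sorted by flow cytometry, and ribosomal RNA was depleted from total RNA before sequencing. The series text gives 3 mice per treatment, but the labels do not say whether an M-MDSC and a PMN-MDSC library with the same number came from 1 mouse, nor whether cells were pooled. P-values therefore measure the spread among these libraries.

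MDSC are immature myeloid cells that expand with tumours and can suppress T cells. M-MDSC resemble inflammatory monocytes: they leave the marrow through the chemokine receptor Ccr2, depend on the lineage factor Irf8 and can become macrophages or antigen-presenting cells. PMN-MDSC resemble immature and mature neutrophils: they follow Cxcr2 ligands, carry granules filled in successive waves during maturation (primary, then secondary, then tertiary), and survive only briefly. After cytotoxic drugs the marrow refills the blood through a burst of myelopoiesis. Whether the cells sampled here were newly made was not tested.

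Values are normalized read counts, that is, reads per gene divided by 1 size factor per library. The recovered totals of the LD libraries were 9185223 to 11833775 reads. The normalized totals were 8572575 to 9071830 in LD M-MDSC and 13715662 to 15808125 in LD PMN-MDSC, so equal normalized counts are a larger share of the M-MDSC total. Differences are M-MDSC minus PMN-MDSC on log2(normalized count + 1), so positive values are higher in M-MDSC, and low genes have understated differences. They were tested with limma over 11122 genes with a mean of at least 10, and a gene passed at a Benjamini-Hochberg adjusted p under 0.05. In bulk samples, fewer cells of a type and less RNA per cell cannot be told apart. Library 1 stood apart within both LD groups: its summed count of 26 cell division genes was 21112 in M-MDSC against 6621 and 8592 in libraries 2 and 3, and 19910 in PMN-MDSC against 6903 and 8679. The summed count of 18 secondary and tertiary granule genes was 84748 in LD M-MDSC library 1 against 38431 and 52246 in the others. The summed count of the 29 monocyte genes was lowest in library 1 of both groups (228325 for M-MDSC, 160935 for PMN-MDSC). The part of these features in the results was not tested, and values without both libraries 1 stand beside the results they touch.

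The markers of each population were on the side its label names, except Ly6c2 and Lyz2. These were level in LD (log2 0.15 and -0.05) and did not pass. Ccr2 had 10069, 12135 and 10762 normalized counts in LD M-MDSC and 399, 341 and 165.5 in LD PMN-MDSC. The groups were far apart, a 38.6-fold difference (log2 5.27 ± 0.28 SE, n = 3 per group, limma adjusted p = 4.13e-10). Irf8 had 1744, 3076 and 2342 against 122, 80.9 and 61.7 (log2 4.76 ± 0.28, limma adjusted p = 1.46e-09). Mmp9, a gelatinase of neutrophil tertiary granules, had 43.5, 47.6 and 211 in LD M-MDSC and 46468, 80635 and 88433 in LD PMN-MDSC (log2 -9.81 ± 0.73, limma adjusted p = 1.5e-08). Cxcr2 had 89.1, 18.7 and 62.1 against 29383, 28319 and 32521 (log2 -9.28 ± 0.49, limma adjusted p = 4.36e-10). All 3 libraries of each population lay on its own side for these 4 markers. Leaving out M-MDSC library 3 put Mmp9 at -10.54, and leaving out M-MDSC library 2 put Cxcr2 at -8.64. In untreated mice the differences were 5.16 for Ccr2, 4.48 for Irf8, -11.01 for Mmp9 and -10.36 for Cxcr2, and none of these 4 changed past the threshold. Without M-MDSC Ctrl library 1 the untreated values were -9.91 for Mmp9 and -9.73 for Cxcr2, and without M-MDSC Ctrl library 2 Mmp9 was -11.68. Ly6g, the usual surface marker of PMN-MDSC, was not analysed here.

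**Figure D1:**
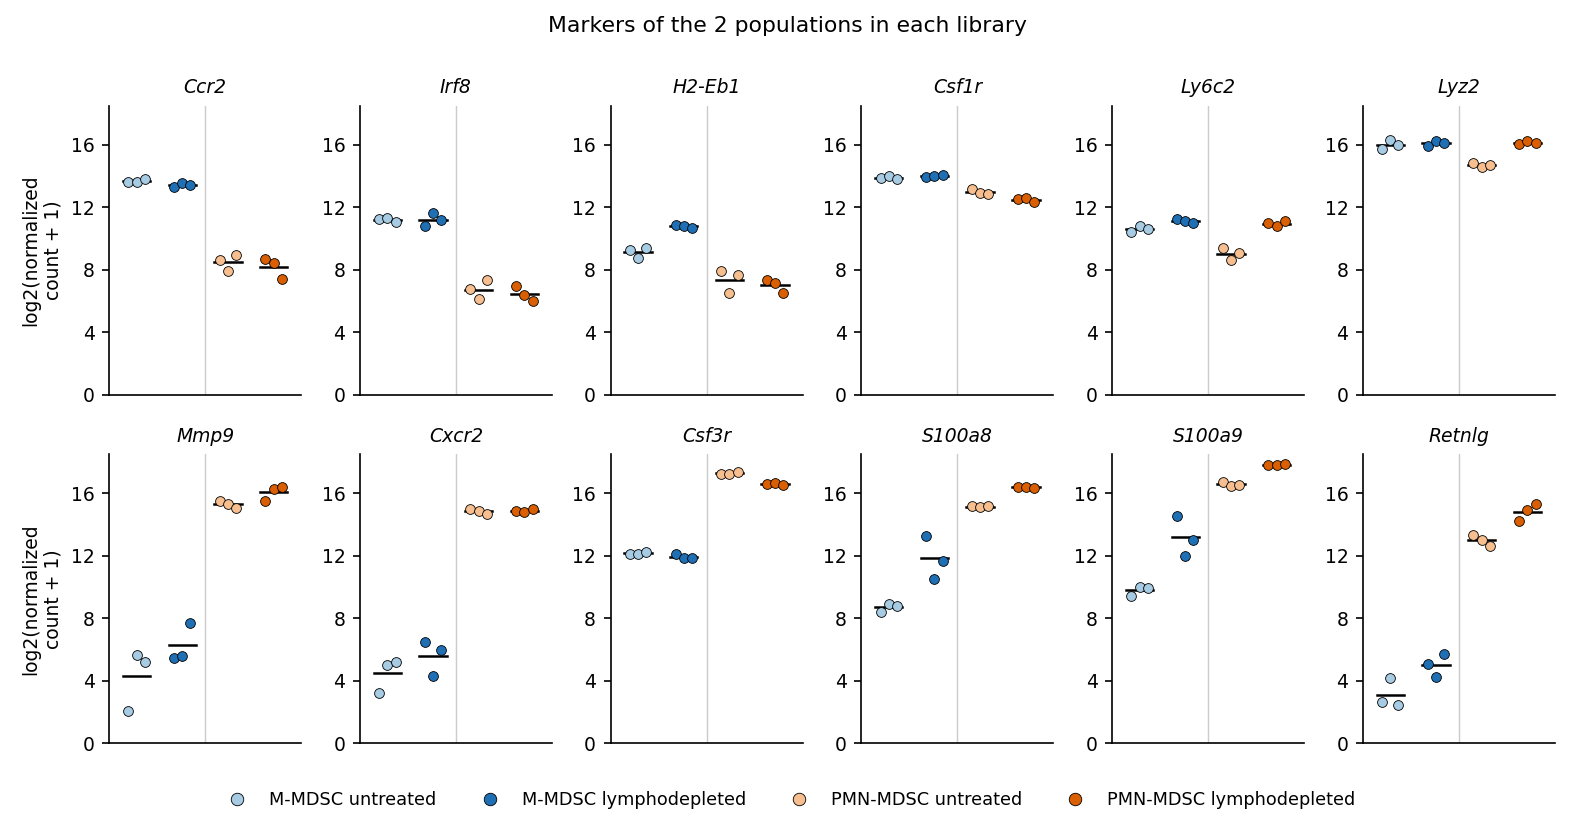
Normalized counts of 12 population markers in each of the 12 libraries, on a log2(normalized count + 1) axis; points are libraries 1 to 3 from left to right in each group and bars are group means. Ccr2 and Irf8 lie high in M-MDSC and Mmp9, Cxcr2 and Csf3r high in PMN-MDSC with or without lymphodepletion, whereas Ly6c2 and Lyz2 lie level in the 2 lymphodepleted groups.

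Markers of lymphocytes, red cells and melanoma were low, with exceptions. Of the B cell markers, Cd79a, Ms4a1 and Pax5 were at 0 in all 3 LD M-MDSC libraries and at most 4.1 in LD PMN-MDSC. Cd79b, a B cell receptor chain, had 32.6, 62 and 30.5 counts in LD M-MDSC and 6.8, 1.5 and 0 in LD PMN-MDSC, and passed (log2 3.92, limma adjusted p = 8.61e-05). Cd22, the other B cell marker tested, passed on the PMN-MDSC side (log2 -0.735, limma adjusted p = 0.0195). Its counts were 98.5, 113 and 151 in LD M-MDSC and 139, 203 and 276 in LD PMN-MDSC, groups that overlapped. The T cell markers Cd3e and Cd8a were at 0 in all 6, but Cd3d, a chain of the T cell receptor complex, had 25.7, 128 and 51.9 in LD PMN-MDSC against 7.2, 0 and 0 in LD M-MDSC (-4.81, limma adjusted p = 0.000191). Klra8, Mlana and the globin genes Hbb-bs and Hba-a1 were listed at 0 in all 12 libraries, and the globins have near-identical copies, so these zeros check little. The summed level of 10 erythroid markers was 5.1 to 21.7 in LD M-MDSC and 13.2 to 52.7 in LD PMN-MDSC. The summed level of the 10 B cell markers was 133 to 186 in LD M-MDSC and 153 to 287.5 in LD PMN-MDSC, and that of the 9 T cell markers 11.8 to 29.7 and 36.5 to 159. Higher sums came from lists whose genes myeloid cells can also express: 2027 to 2253 and 2802.5 to 4151 for 11 dendritic cell markers, and 2693 to 3880 and 2078 to 2381 for 8 plasma cell markers. The sum of the 9 macrophage markers was 420 to 511 in LD M-MDSC and 222 to 448 in LD PMN-MDSC, against 180.1 to 228 and 257 to 381 in the untreated groups. Of the 8 macrophage markers tested, Spic and C1qb passed on the M-MDSC side and Cd5l on the other, and the part of other cells in the results was not tested. Arg1 and Nos2, enzymes often linked to MDSC suppression, were below the minimum level and were not tested.

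In LD mice 8323 genes differed between the populations, 74.8% of those tested. M-MDSC were the higher population for 4310 of them (38.8%) and PMN-MDSC for 4013 (36.1%). The counts of each gene list below are to be read against these shares. Counts in untreated mice were close: 8407 genes (75.6%), 4317 toward M-MDSC (38.8%) and 4090 toward PMN-MDSC (36.8%). With upper-quartile scaling, which moved the median LD difference of all genes from 0.096 to 0.414, the LD split went from 51.8% to 62.0% of calls higher in M-MDSC. At least 8-fold LD differences numbered 1120 toward M-MDSC and 585 toward PMN-MDSC, against 906 and 659 in untreated mice. Across genes, which are not independent replicates, the LD and untreated differences had a Pearson r of 0.934 and a slope of 0.944.

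Whether a difference was altered by lymphodepletion was tested by the difference of the differences, LD minus Ctrl. It passed for 250 genes, 2.25% of those tested (131 toward M-MDSC, 1.18%, and 119 toward PMN-MDSC, 1.07%). With TMM scaling the split of these calls went from 52.4% to 62.8% toward M-MDSC, and with edgeR to 66.9%. It went to 44.8% with no minimum level, and ran from 38.3% (without PMN-MDSC Ctrl library 1) to 61.5% (without M-MDSC LD library 2) when 1 library was left out. The count depended on single libraries: it was 832 without PMN-MDSC LD library 1 and 113 without PMN-MDSC Ctrl library 2, and 88 of the 250 passed whichever library was left out. Each gene was then classed. Held (7180 genes, 64.6%) means past the threshold in both treatments in the same direction with no called change, although the 95% interval of the change lay within 1 log2 unit for only 3824 of them (53.3%). Among the rest, 66 widened (0.593%), 101 shrank (0.908%), 35 were lost (past in Ctrl only, 0.315%), 27 appeared (past in LD only, 0.243%) and 30 reversed (0.27%). Widened, shrunken, lost and appeared genes had a called change, whereas reversed genes only had to pass in both treatments in opposite directions. A further 1914 genes (17.2%) passed in only 1 treatment without a called change and are unresolved, and 1769 (15.9%) passed in neither. Shrinking lay mostly on the PMN-MDSC side: 75 of the 101 shrunken differences were higher in PMN-MDSC. Widening and appearing did so too, with 43 of the 66 and 17 of the 27 higher in LD PMN-MDSC. Among held genes 3471 of the 7180 were higher in PMN-MDSC.

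**Figure D2:**
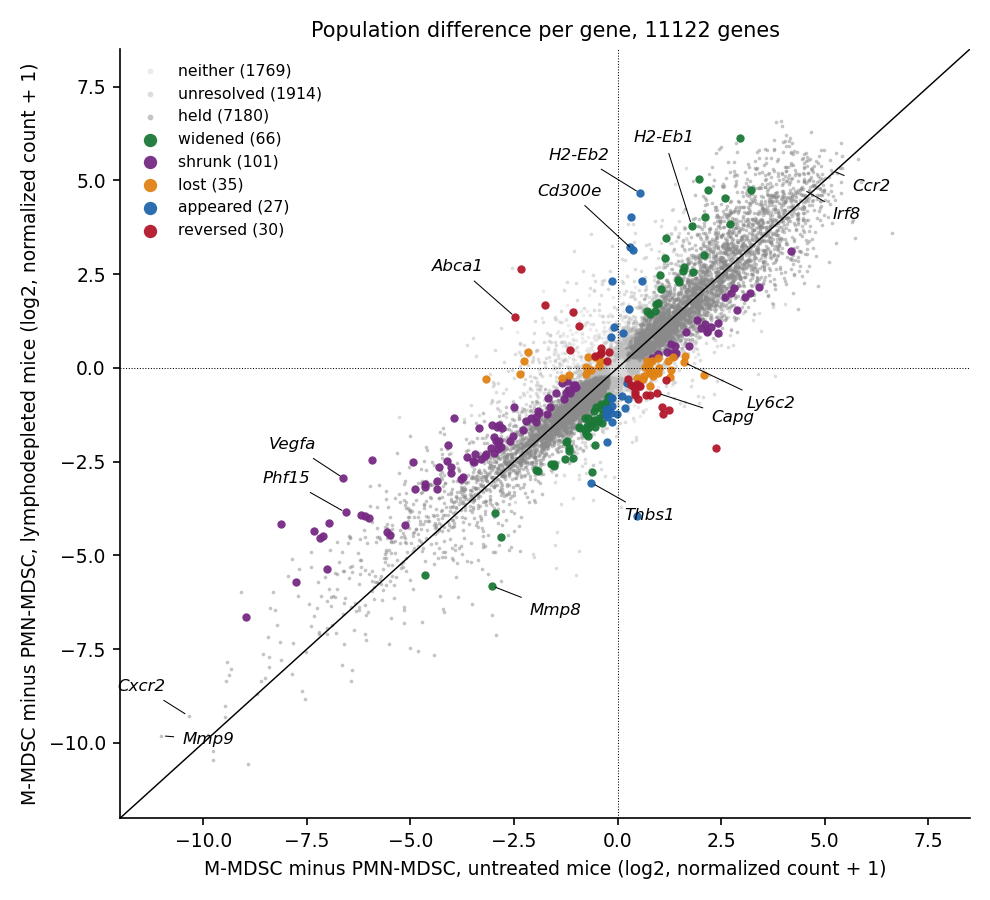
Each of 11122 genes by its M-MDSC minus PMN-MDSC difference in untreated mice (horizontal) and lymphodepleted mice (vertical), both log2; the line marks equal differences and colours the classes, with their counts. Most genes follow the line, and the 66 widened, 101 shrunken, 35 lost, 27 appeared and 30 reversed genes leave it.

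The largest M-MDSC excesses in LD mice were all held except 1. Ccdc102a (log2 6.58), Phf11a (6.56), Lpxn, a focal adhesion adaptor (6.28), Plcl1 (6.22), Atp2b4, a plasma membrane calcium pump (6.12), Luzp1 (6.08), Clec10a, a galactose-binding lectin of monocyte-derived antigen-presenting cells (6.05), Cecr5 (5.99) and Galnt9 (5.92) made up the held part. These genes were chosen by their LD values, and held does not mean unchanged. Their untreated differences were smaller, in the same order 3.95, 3.83, 4.67, 4.07, 4.17, 3.78, 4.04, 4.20 and 4.13. The Ccdc102a change of 2.63 did not pass (limma adjusted p = 0.175), but it was 3.86 without both LD libraries 1 (0.0128). Several of the LD differences rest on single PMN-MDSC libraries with few or no reads. Atp2b4 had 37.9, 32.4 and 0 counts in LD PMN-MDSC, and its difference ran from 4.40 without library 3 of that group to 7.04 without library 1. Luzp1 had 6.8, 0 and 25.2, and its difference ran from 4.80 without library 2 to 7.16 without library 3. Galnt9 had 146, 241 and 238 normalized counts in LD M-MDSC and 1.4, 1.5 and 5.6 in LD PMN-MDSC (limma adjusted p = 1.3e-08). Slc7a6, an amino acid transporter, was the exception. It had 126, 149 and 99.5 counts in LD M-MDSC and 1.4, 0 and 1.4 in LD PMN-MDSC, against 27.5, 7.9 and 16 in untreated PMN-MDSC. Its difference widened from 2.96 to 6.12 (change 3.17, limma adjusted p = 0.0338), a change that passed in 3 of the 12 fits that leave out 1 library.

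The largest PMN-MDSC excesses were larger still and all 10 were held. Stfa2l1, a stefin-type protease inhibitor with near copies in its family, had 1762, 1822 and 1858 normalized counts in LD PMN-MDSC and 0.7, 0 and 0 in LD M-MDSC, a single read in all. Steap4, a metalloreductase (log2 -10.46), Asprv1, an aspartic protease (-10.21), Dhrs9, a retinol dehydrogenase (-9.89), Retnlg, a resistin-like secreted protein (-9.80), Amer2 (-9.01) and Ankrd33b (-8.61) followed, together with Mmp9 and Cxcr2. H2-Q10, a class I gene with near-identical copies, is uncertain for that reason (log2 -9.31). The Retnlg difference was -9.80 in LD and -9.89 in Ctrl mice. Leaving out M-MDSC LD library 2 moved H2-Q10 to -7.90, Steap4 to -9.51 and Dhrs9 to -8.85; in that library the 3 genes had 0, 0 and 0.8 counts.

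**Figure D3:**
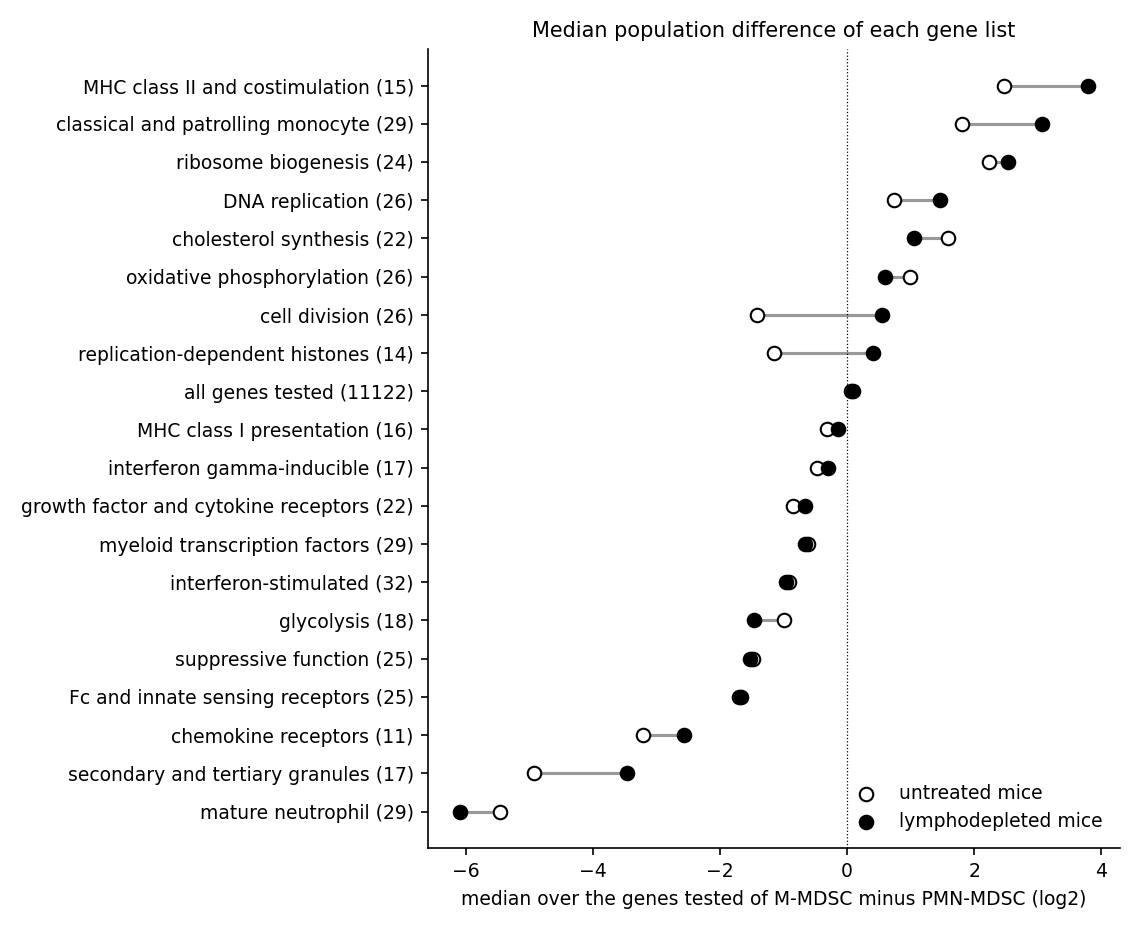
Median M-MDSC minus PMN-MDSC difference (log2) of 19 gene lists and of all genes tested, with the number of genes tested in brackets; open circles are untreated and filled circles lymphodepleted mice. Cell division moved from a median of -1.42 to 0.55, MHC class II from 2.46 to 3.80 and secondary and tertiary granules from -4.93 to -3.46, while all genes tested stayed near 0.

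Genes of the mature neutrophil held almost throughout. Of 29 tested, 27 were higher in LD PMN-MDSC and none in M-MDSC, with a median difference of -6.10 (-5.47 in untreated mice). Csf3r, the receptor for the neutrophil growth factor G-CSF, had 4479, 3675 and 3746.5 counts in LD M-MDSC and 98420, 101934 and 95899 in LD PMN-MDSC (log2 -4.64 ± 0.10, limma adjusted p = 2.33e-13). Its difference was held (Ctrl -5.13). Il1b, the inflammatory cytokine interleukin-1 beta (-6.10), Mxd1, a Myc antagonist of terminal differentiation (-6.14), and Slpi, an inhibitor of neutrophil elastase (-5.49), were held as well. Changes in this list passed for 3 genes. Mmp8 widened, Hdc, which makes histamine, shrank from -8.96 to -6.65 (in 4 of 12 fits without 1 library, against all 12 for Mmp8), and Ccrl2, an atypical chemerin receptor, was lost (-0.17 in LD, limma adjusted p = 0.654, against -2.35 in Ctrl).

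Migration receptors were divided between the populations. Of 11 chemokine receptors tested, 3 were higher in LD M-MDSC, Ccr2 and Cx3cr1 among them, and 7 in LD PMN-MDSC. Over all genes tested the shares were 38.8% and 36.1%. Cx3cr1, the fractalkine receptor, had 3730.0, 4624 and 3217.5 counts in LD M-MDSC and 233, 182 and 91.1 in LD PMN-MDSC. Ccr1 and Cxcr4, which retains neutrophils in the marrow, were higher in PMN-MDSC (-5.32 and -3.31). Among 10 chemokines, Ccl9, Cxcl16, Cxcl9 and Ccl5 passed on the M-MDSC side, and Ccl6 and Cxcl2 on the PMN-MDSC side. Ccl3, a chemokine for monocytes and T cells, was lost, from -3.18 in Ctrl to -0.28 in LD (limma adjusted p = 0.622 in LD). Its change passed at 0.0491 and in 2 of 12 fits without 1 library.

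Innate sensing and suppression genes lay mostly with PMN-MDSC. Of 25 Fc and innate sensing receptors, 18 were higher in LD PMN-MDSC and 6 in M-MDSC. Of the 25, 24 were held, against 64.6% of all genes tested, and none had a called change. Clec4d, a C-type lectin for mycobacterial lipids (-7.11), Trem1, an amplifier of inflammation (-4.63), and Nlrp3, an inflammasome sensor (-2.90), were on the PMN-MDSC side. Tlr7, an endosomal sensor of single-stranded RNA, was on the M-MDSC side (2.49). Of 25 genes listed for suppressive function, 20 were higher in LD PMN-MDSC, against 21 in untreated mice, and Tgfb1 alone was higher in LD M-MDSC (log2 0.41 ± 0.11). Entpd1, the ATP-degrading ectoenzyme CD39, had 373, 376 and 395 counts in LD M-MDSC and 6280, 6476 and 7349 in LD PMN-MDSC, and the difference was held (-4.13 in LD, -4.30 in Ctrl).

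Cd274 encodes the checkpoint ligand PD-L1, and its difference shrank. It had 525, 313 and 328 normalized counts in LD M-MDSC, against 207.5, 174 and 232 in untreated M-MDSC. The PMN-MDSC values were 999.5, 1224 and 1078 in LD and 1448.5, 1578 and 1419 in untreated mice. PMN-MDSC libraries were above M-MDSC libraries in both treatments, but closer in LD: the difference went from -2.86 to -1.53 (change 1.33 ± 0.25 SE, limma adjusted p = 0.0132), and this passed whichever library was left out. Vegfa, a growth factor for blood vessels, went from -6.62 to -2.94, with 183, 27.2 and 74.9 counts in LD M-MDSC against 7.1, 2.9 and 15.7 in untreated M-MDSC. The Vegfa change was called in 4 of 12 fits without 1 library and fell to 3.01 from 3.68 without M-MDSC LD library 1, the highest of its group.

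Interferon-stimulated genes kept their side. Of 32 tested, 22 were higher in LD PMN-MDSC and 8 in M-MDSC, against 20 and 9 in untreated mice. Of the 32, 27 were held, against 64.6% of all genes tested. Ifit1, which binds viral RNA, had 401, 456 and 360 counts in LD M-MDSC and 4169, 3479 and 3279 in LD PMN-MDSC, a held difference (-3.16 in LD, -3.25 in Ctrl). Rsad2, the antiviral enzyme viperin, gave -3.72 in LD and -4.05 in Ctrl. Oasl1 alone changed, shrinking from -3.18 to -2.30 (limma adjusted p = 0.0289), in 6 of 12 fits without 1 library. Genes of this kind are switched on through promoter elements bound by interferon-activated factors. The motif GAAANNGAA, in which N is any base, was looked for on both strands of RefSeq promoters (build GRCm38.p6, 250 bases before to 50 after the start), and it lay in 14 of the 27 windows found for 22 of the 32 genes (51.9%) against 8.56% of all 32851 windows. GAAANNGAA was not particular to this list: it lay in 12 of the 16 windows of the interferon gamma-inducible genes and in 3 of the 6 of the chemokines. The 250 bases before the Ifit1 start (chr19:34640639-34640888, plus strand) show 3 matches on the reverse strand, in capitals, 2 of them overlapping.
Ifit1: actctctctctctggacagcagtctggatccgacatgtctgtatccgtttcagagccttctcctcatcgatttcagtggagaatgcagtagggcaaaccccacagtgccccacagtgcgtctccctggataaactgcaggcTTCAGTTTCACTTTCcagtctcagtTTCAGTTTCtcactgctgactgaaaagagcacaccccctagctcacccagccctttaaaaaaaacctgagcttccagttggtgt
A match is a description of the letters and not a measured binding site.

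Metabolic lists kept their direction too. Of 18 glycolysis genes, 15 were higher in LD PMN-MDSC and none in M-MDSC, with a median of -1.47 (-0.99 in Ctrl). Hk3, a hexokinase (-2.81), Pfkfb4 (-2.57) and Slc2a3, a glucose transporter (-6.85), were all held. Slc16a3, which exports lactate, had 1039, 1093 and 1136 counts in LD M-MDSC and 4780, 4288 and 4935 in LD PMN-MDSC. Its difference shrank from -2.82 to -2.10 (limma adjusted p = 0.008), whichever library was left out. Of 26 oxidative phosphorylation genes, 17 were higher in LD M-MDSC, against 20 in untreated mice, and Sdha alone was higher in LD PMN-MDSC (log2 -0.30, limma adjusted p = 0.0335), a call that ended with upper-quartile scaling (0.02). Of 24 ribosome biogenesis genes 22 were higher in M-MDSC in both treatments, with Polr1a as the single gene on the PMN-MDSC side (-2.24). Ddx21, an RNA helicase of rRNA processing, gave 3.05 in LD and 2.71 in Ctrl, and Npm1, the nucleolar chaperone, 2.88 and 3.18.

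Cholesterol synthesis genes lay mostly with M-MDSC. Of 22 tested, 14 were higher in LD M-MDSC and 4 in PMN-MDSC, against 18 and 3 in untreated mice, and the median went from 1.58 to 1.05. Srebf2, which activates these genes, had 1765, 2502 and 2079 counts in LD M-MDSC and 1511, 1603 and 1959 in LD PMN-MDSC, groups that overlapped. Untreated M-MDSC had 1585, 1455 and 1501 and untreated PMN-MDSC 599.8, 591.5 and 573. The difference shrank from 1.36 to 0.32 (limma adjusted p = 0.00849 for the change), and its remaining LD difference passed in 8 of 12 fits without 1 library. Sc4mol, a sterol demethylating enzyme, appeared on the PMN-MDSC side (-0.82 in LD, 0.24 in Ctrl). Both changes passed whichever library was left out.

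MHC class II genes, which present antigen to CD4 T cells, were mostly higher in M-MDSC. The change passed for 3 of 15, against 2.25% of all genes tested. Of the 15 tested, 12 were higher in LD M-MDSC, 11 in untreated M-MDSC, and the median difference was 3.80 against 2.46. H2-Eb1 (chr17:34305867-34316674) had 1854, 1762 and 1643 normalized counts in LD M-MDSC and 162, 137 and 88.3 in LD PMN-MDSC. Untreated M-MDSC had 596, 435 and 673, and untreated PMN-MDSC 237, 88.8 and 198. Each LD M-MDSC library lay above every untreated one, while the PMN-MDSC groups overlapped. The difference widened from 1.79 to 3.80 (change 2.01 ± 0.43 SE, limma adjusted p = 0.0293). H2-Eb2 and H2-Ob appeared, both at low counts: H2-Eb2 had 46.4, 40.8 and 18.7 counts in LD M-MDSC and 0, 0 and 1.4 in LD PMN-MDSC, a single read. H2-Ob, a chain of the peptide-loading regulator H2-O, had 34.8, 32.3 and 41.4 against 2.7, 5.9 and 1.4. The 3 changes passed in 5 (H2-Eb1), 2 (H2-Eb2) and 2 (H2-Ob) of the 12 fits without 1 library, and the H2-Eb2 adjusted p was 0.0553 without both LD libraries 1.

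Of the other 12 class II and costimulation genes, 10 were held, H2-DMb2 passed in neither treatment and Cd86 was unresolved. The 10 held of all 15 are near the 64.6% held of all genes tested. H2-Aa had 2319, 2553 and 2293 counts in LD M-MDSC and 209.6, 137 and 107 in LD PMN-MDSC, a difference of 4.03 against 2.52 in untreated mice. Its change of 1.52 did not pass (limma adjusted p = 0.0652). Cd74, the invariant chain, went from 2.56 to 3.92 (change adjusted p = 0.0557, limma), and Ciita, the master activator of the class, from 3.20 to 4.39 (0.15). Ctss, the protease that trims the invariant chain, gave 3.06 and 3.07. Cd80, a costimulatory ligand, was the single member higher in LD PMN-MDSC (-3.36). Without both LD libraries 1 the list had 12 higher in M-MDSC and 5 called changes in place of 3. Called changes among all genes tested went from 250 to 773 in that fit. Among 8 dendritic cell genes tested, 6 were higher in LD M-MDSC, but Xcr1 and Siglech, markers of dendritic cell types, were at most 2.9 in any LD library. The macrophage markers moved with the class II genes: their median difference went from -1.20 in untreated to 1.03 in LD mice. All 8 tested moved toward M-MDSC, against 5942 of all 11122 genes tested, with none of the 8 changes called. The part of dendritic cells and macrophages in the class II result was not tested.

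**Figure D4:**
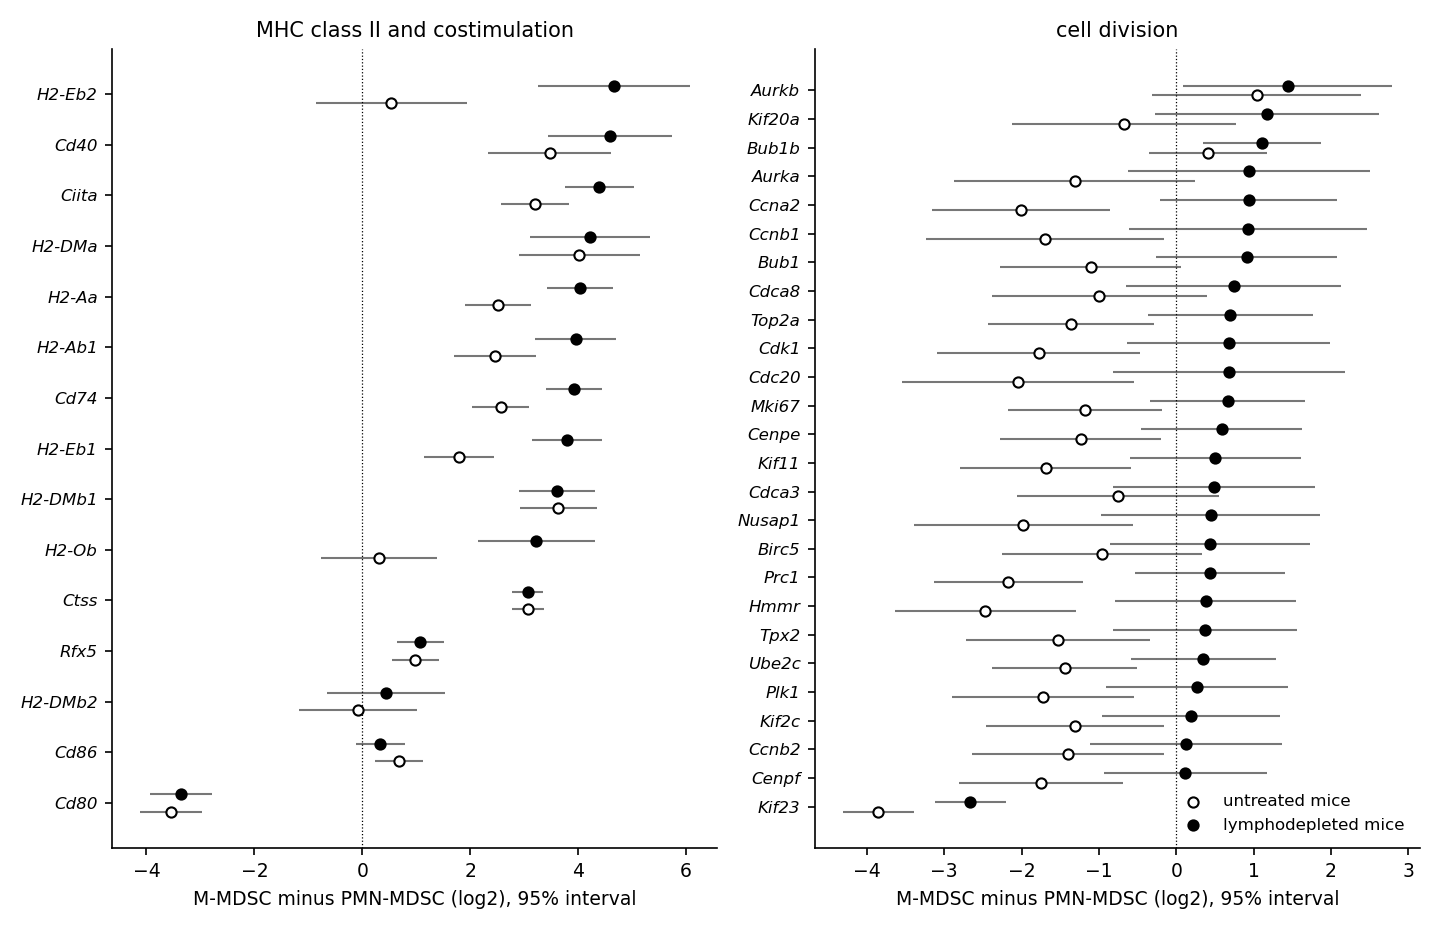
M-MDSC minus PMN-MDSC difference (log2) of the 15 tested MHC class II and costimulation genes and the 26 cell division genes, with 95% intervals; open circles are untreated and filled circles lymphodepleted mice. The intervals of H2-Eb1, H2-Eb2 and H2-Ob lie apart between treatments, and so do those of H2-Aa and Cd74, whose changes did not pass. Every cell division gene lies further toward M-MDSC after lymphodepletion, with intervals that mostly include 0.

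Class II promoters are bound through an X box and a Y box, and were searched on both strands for AGNNACNGA, a core of the X box, and CCAAT, the core of the Y box. CCAAT lay in 8 of the 11 windows found for 10 of the 15 genes (72.7%; 37.4% of all windows) and AGNNACNGA in 4 (36.4%; 17.7% of all). Some other lists had a higher CCAAT share, such as class I presentation (80.0%) and cholesterol synthesis (84.2%). Shown are the 250 bases before the start of the widened gene H2-Eb1 (chr17:34305617-34305866, plus strand) and the held gene H2-Aa (chr17:34287824-34288073, minus strand, printed 5′ to 3′ on that strand), with matches in capitals. CCAAT on the reverse strand reads as its reverse complement.
H2-Eb1: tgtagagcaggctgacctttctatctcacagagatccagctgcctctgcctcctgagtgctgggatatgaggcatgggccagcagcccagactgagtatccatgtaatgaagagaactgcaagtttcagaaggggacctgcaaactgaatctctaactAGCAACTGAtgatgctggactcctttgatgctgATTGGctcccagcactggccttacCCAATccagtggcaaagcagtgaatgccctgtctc
H2-Aa: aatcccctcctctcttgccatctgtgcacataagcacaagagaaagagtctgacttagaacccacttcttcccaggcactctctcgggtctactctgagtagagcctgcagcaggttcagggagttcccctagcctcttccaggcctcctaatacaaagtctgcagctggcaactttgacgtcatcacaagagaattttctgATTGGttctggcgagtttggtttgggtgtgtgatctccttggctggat
In H2-Eb1 the AGNNACNGA match began 92 bases before the start and the nearest reverse CCAAT 59 bases before it. In H2-Aa only the CCAAT match was found, 48 bases before.

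Most monocyte genes were held, and 3 lost their difference. Of 29 classical and patrolling monocyte genes, 19 were higher in LD M-MDSC and 7 in LD PMN-MDSC. Held genes numbered 22 of the 29, against 64.6% of all genes tested, and the median was 3.06 against 1.81 in untreated mice. Fn1, fibronectin, had 23362, 37895 and 37056 counts in LD M-MDSC and 1231, 889.9 and 590.4 in LD PMN-MDSC (5.21 in LD, 5.18 in Ctrl). Csf1r, the receptor for the monocyte growth factor M-CSF, had 15618, 16003 and 17050.1 counts in LD M-MDSC and 5911, 6007 and 5102 in LD PMN-MDSC. Its difference widened from 0.91 to 1.52 (limma adjusted p = 0.0433), in 2 of 12 fits without 1 library. Cd300e, an activating receptor of patrolling monocytes, appeared: it had 508, 278.5 and 299.5 counts in LD M-MDSC and 37.9, 61.8 and 23.8 in LD PMN-MDSC, with all 6 untreated libraries between 29.9 and 79.6. The Cd300e change was 2.79 (limma adjusted p = 0.0281) and 2.51 without both LD libraries 1 (0.0348), and it passed in 6 of 12 fits without 1 library (adjusted p up to 0.0725).

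Ly6c2, Lyz2 and Lgals3 lost their difference, and they were the 3 monocyte genes that did not pass in LD. Ly6c2 (chr15:75108161-75112066) encodes the Ly6C antigen by which M-MDSC are usually told from PMN-MDSC, and its near copy Ly6c1 makes the counts uncertain. It had 2427.5, 2166.1 and 1994 counts in LD M-MDSC and 1979, 1758 and 2188 in LD PMN-MDSC, groups that overlapped. In untreated mice it had 1332, 1802 and 1544 in M-MDSC and 650, 395.5 and 524 in PMN-MDSC, groups well apart. The difference went from 1.59 to 0.15 (change -1.44 ± 0.23 SE, limma adjusted p = 0.00724; in LD adjusted p = 0.395). Lyz2, lysozyme, had 62259, 76671 and 69476 counts in LD M-MDSC and 68319, 75824 and 70959 in LD PMN-MDSC, where untreated PMN-MDSC had 28365, 24715 and 26914. Its difference went from 1.29 to -0.05 (limma adjusted p = 0.00826). Lgals3, galectin-3, went from 1.21 to 0.18 (0.00956 for the change), and Cybb, the catalytic subunit of the phagocyte oxidase, from 1.34 to 0.29 (0.013 for the change). The 4 changes passed whichever library was left out. In all 4 genes the 3 LD PMN-MDSC libraries lay above the 3 untreated PMN-MDSC libraries.

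Secondary and tertiary granule genes stayed on the PMN-MDSC side. Of 17 tested, 15 were higher in PMN-MDSC in both treatments, 13 were held (against 64.6% of all genes tested) and 3 shrank. The median went from -4.93 to -3.46. Of the 17, 9 moved toward M-MDSC, near the share over all genes tested (5942 of 11122). Camp, the cathelicidin antimicrobial protein, had 4838, 1054 and 2190.0 counts in LD M-MDSC against 167, 182 and 240.1 in untreated M-MDSC. LD PMN-MDSC had 16531, 11115 and 11094 and untreated PMN-MDSC 5580.0, 6198 and 6021. The LD values exceeded the untreated ones in both populations, and the difference shrank from -4.93 to -2.50 (change 2.42, limma adjusted p = 0.0293). Ltf, lactoferrin, shrank from -6.19 to -3.92 (0.0356) and Itgb2l, an integrin subunit, from -6.10 to -3.95 (0.0474). These changes passed in 3 or 4 of 12 fits without 1 library. Without both LD libraries 1 they stayed past the threshold, at 2.06 (Camp), 1.80 (Ltf) and 1.54 (Itgb2l), while the median change of the list fell from 1.36 to 0.75. S100a8 and S100a9, which form calprotectin, had the same form without a call. S100a9 had 23934, 4031 and 8330 counts in LD M-MDSC against 698, 1021 and 987 in untreated M-MDSC, and 227042, 226964 and 241269 in LD PMN-MDSC. The S100a9 change was 2.14 (limma adjusted p = 0.0724) and that of S100a8 1.91 (0.116).

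Primary granule genes, made by promyelocytes, were split. Of 10 tested, Mpo, Elane, Ctsg, Prtn3 and Ms4a3 were higher in LD M-MDSC, and Prss57, Serpinb1a, Cd63 and Srgn in LD PMN-MDSC. Mpo, myeloperoxidase, had 4386, 992 and 1195 counts in LD M-MDSC and 279, 8.8 and 39.3 in LD PMN-MDSC, with library 1 the highest in both groups. Untreated M-MDSC had 85.0, 75.6 and 120 and untreated PMN-MDSC 2, 0 and 8. The Mpo difference was held (5.17 in LD, 4.94 in Ctrl), but leaving out 1 LD library moved it between 4.03 and 6.45. Of 9 progenitor genes, Flt3, a receptor of early myeloid and dendritic progenitors, was higher in LD M-MDSC (3.26) and Kit, the stem cell factor receptor, in LD PMN-MDSC (-1.43). Kit lost its call without M-MDSC LD library 2 (0.0573).

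Most cell division genes that were higher in untreated PMN-MDSC did not pass in LD. In untreated mice 18 of 26 were higher in PMN-MDSC and none in M-MDSC. In LD mice 1 was higher in each, Bub1b in M-MDSC (1.10) and Kif23 in PMN-MDSC (-2.66), and 24 did not pass. The difference moved toward M-MDSC in all 26, by a median of 1.89, against 5942 of all 11122 genes tested. The change passed for Prc1 alone, so 17 of the 26 are unresolved. Mki67, the proliferation marker, had 8133, 2434 and 3201 counts in LD M-MDSC and 6242, 1260.5 and 2025 in LD PMN-MDSC. Untreated M-MDSC had 955, 775.1 and 774.7, and untreated PMN-MDSC 1688, 2097 and 1901. The LD groups overlapped, library 1 was highest in both, and the difference was 0.66 ± 0.47 SE (limma adjusted p = 0.209). Without both LD libraries 1 the list had 10 genes higher in M-MDSC and 17 called changes toward M-MDSC, when 773 of all genes tested had a called change. Replication-dependent histones, whose family copies make the counts uncertain, went from 7 of 14 higher in PMN-MDSC to 3, with none of the changes called. Of 26 DNA replication genes, 15 were higher in LD M-MDSC and none in PMN-MDSC; the 10 and 3 in untreated mice were near or below the 38.8% and 36.8% of all genes tested. Pcna, the replication clamp, had 711, 462 and 475 counts in LD M-MDSC and 265, 116 and 121 in LD PMN-MDSC (1.79 in LD, 1.67 in Ctrl).

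Prc1, which bundles the spindle midzone, lost its difference: 472, 172 and 188 counts in LD M-MDSC overlapped 368, 89.7 and 186.5 in LD PMN-MDSC. It went from -2.17 in Ctrl to 0.44 in LD (change adjusted p = 0.0487, limma) and passed in 2 of 12 fits without 1 library. Late cell cycle genes are known for a CCAAT box near a TTTGAA element (the cell cycle homology region). CCAAT lay in 20 of the 23 windows found for 22 of the 26 cell division genes (87.0%; 37.4% of all windows) and TTTGAA in 18 (78.3%; 17.9% of all), each on either strand. For DNA replication the TTTGAA share was 11.1% and the CCAAT share 63.0%. Other lists were closer to cell division or above it. Replication-dependent histones had CCAAT in 13 of 14 windows (92.9%) and TTTGAA in 7 of the 14. Cholesterol synthesis had a CCAAT share of 84.2%, so a high CCAAT share was not particular to cell division.

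Transcription factors of the lineages were held for the most part (23 of 29, against 64.6% of all genes tested). Cebpd and Fosl2 were higher in LD PMN-MDSC (-3.68 and -2.54). Irf4, which directs monocytes toward antigen-presenting cells, had 454, 722 and 774 counts in LD M-MDSC and 18.9, 17.7 and 8.4 in LD PMN-MDSC (5.38 in LD, 4.58 in Ctrl). Zeb2, a repressor needed by monocytes, had 8057, 8931 and 9158 counts in LD M-MDSC and 1838, 1559 and 1719 in LD PMN-MDSC. Untreated PMN-MDSC had 3849, 2981 and 4006.5, all above the LD ones, and the difference widened from 1.46 to 2.35 (limma adjusted p = 0.00956), whichever library was left out. Egr1, an immediate early factor, shrank from -4.32 to -2.64 (0.0378), and Cebpb, which drives emergency granulopoiesis, was lost, from -0.41 to 0.18 (0.0433). Both passed in 3 of 12 fits without 1 library.

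Class I presentation and interferon gamma-inducible genes had no common side. Of 16 class I genes, 6 were higher in LD M-MDSC and 7 in LD PMN-MDSC, near the 38.8% and 36.1% of all genes tested. The list median of -0.14 turned positive with upper-quartile scaling (0.18). Of 17 interferon gamma-inducible genes, 7 and 8 were higher in these populations, and the median of -0.30 also turned positive with that scaling (0.02). Of 19 integrin and adhesion genes, 5 were higher in LD M-MDSC and 11 in LD PMN-MDSC, and 15 of the 19 were held (64.6% of all genes tested). Of 17 complement and dead-cell uptake genes, 7 were higher in LD M-MDSC and 5 in LD PMN-MDSC, against 38.8% and 36.1% of all genes tested.

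Among receptors for growth factors and cytokines, 14 of 22 were higher in LD PMN-MDSC and 7 in M-MDSC (36.1% and 38.8% of all genes tested). The change passed for 4, against 2.25% of all genes tested. Csf1r, Il10ra (1.48 to 2.29, limma adjusted p = 0.0466) and Tnfrsf1b (0.79 to 1.43, 0.0274) widened on the M-MDSC side. Il1rn, the interleukin-1 receptor antagonist, shrank on the PMN-MDSC side from -5.14 to -4.19 (limma adjusted p = 0.0193). None of these 4 changes passed in all 12 fits that leave out 1 library. Itgax, the integrin CD11c, had 1265, 1105 and 1071 counts in LD M-MDSC and 2613, 3848 and 3541 in LD PMN-MDSC, against 599, 504 and 786.5 and 5004, 5443 and 4859 in untreated mice. The populations came closer from both sides, and the difference shrank from -3.04 to -1.52 (limma adjusted p = 0.00561), whichever library was left out.

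The largest changes ran in both directions. Mmp8, the neutrophil collagenase (chr9:7558429-7568486), had 550, 576.5 and 471 counts in LD M-MDSC and 21809, 32009 and 38246 in LD PMN-MDSC. Untreated M-MDSC had 817, 1208.5 and 973, and untreated PMN-MDSC 8291, 7943 and 8066. PMN-MDSC were higher and M-MDSC lower in LD than in untreated mice, and the difference widened from -3.04 to -5.81 (change -2.78 ± 0.24 SE, limma adjusted p = 0.000168). Timp2, an inhibitor of such proteases, widened from -2.80 to -4.50 (0.00821), with 2716, 3974 and 4093 counts in LD PMN-MDSC. Acvrl1, a receptor for bone morphogenetic proteins, widened from -0.62 to -2.77 (0.000996), with 2026, 2255 and 3065 counts in LD PMN-MDSC against 576, 497.5 and 607 in untreated PMN-MDSC. Mgst1, a membrane-bound glutathione transferase, appeared on the PMN-MDSC side (-1.98 in LD, -0.26 in Ctrl, 0.00849 for the change). These 4 changes passed whichever library was left out.

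**Figure D5:**
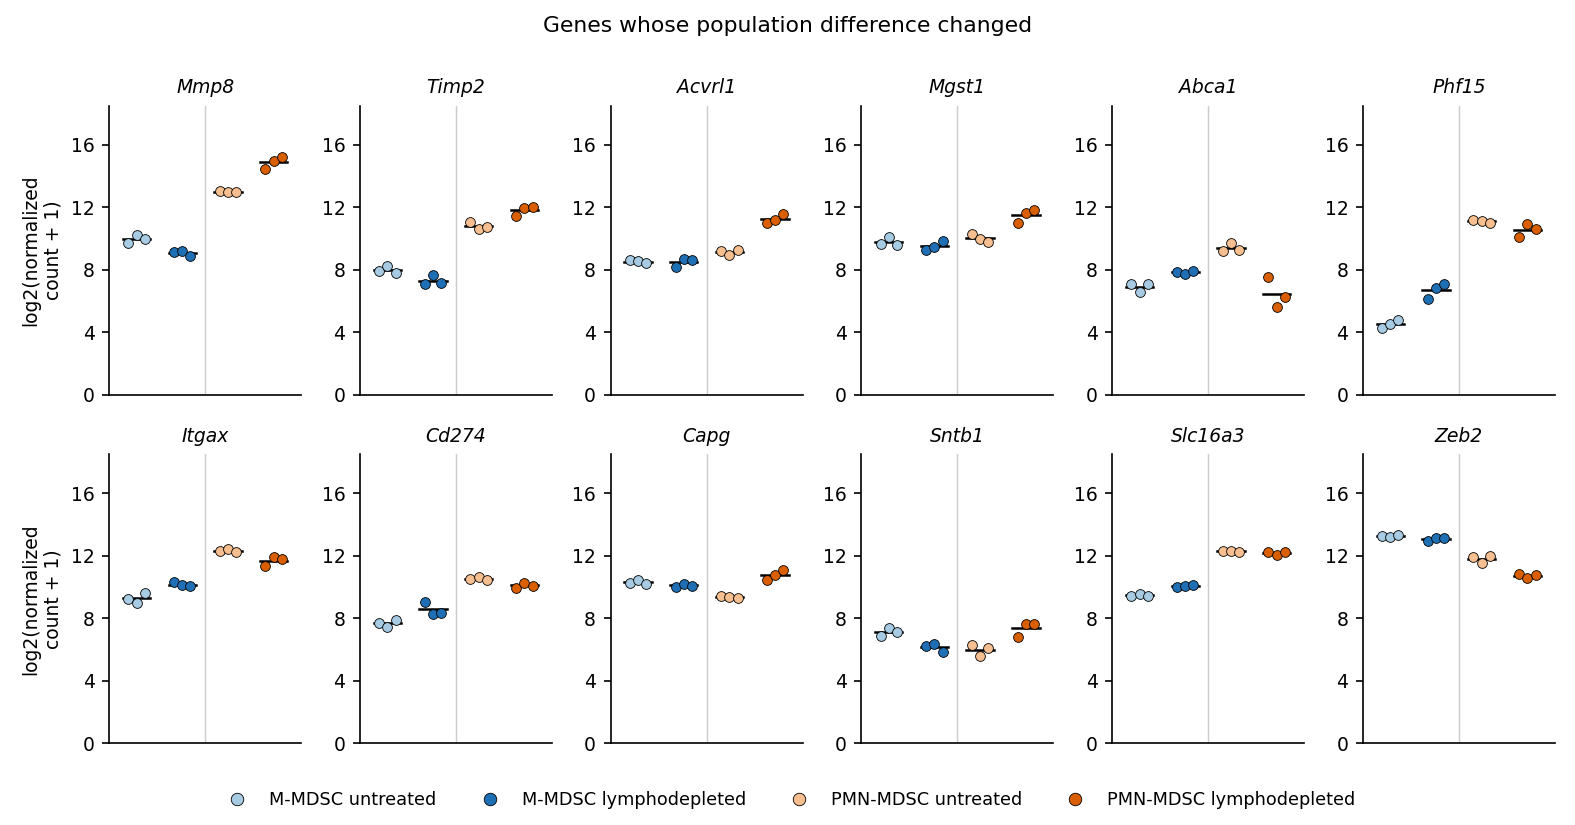
Normalized counts of 12 genes with a called change that passed whichever library was left out, in each of the 12 libraries, on a log2(normalized count + 1) axis; points are libraries 1 to 3 from left to right and bars are group means. Mmp8 and Timp2 separate further after lymphodepletion, Itgax and Cd274 come closer, and Abca1, Capg and Sntb1 change sides.

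Abca1 changed sides. It encodes a cholesterol exporter (chr4:53030789-53159988) and had 225, 207 and 243 counts in LD M-MDSC and 183, 47.1 and 75.7 in LD PMN-MDSC. Untreated M-MDSC had 135, 92.8 and 133, and untreated PMN-MDSC 582.5, 816 and 613. The difference went from -2.47 to 1.36 (change 3.83 ± 0.50 SE, limma adjusted p = 0.00225). Capg, an actin-capping protein, went the other way, from 0.94 to -0.66 (0.00166), with 1025, 1183 and 1091 counts in LD M-MDSC and 1423, 1736 and 2138.5 in LD PMN-MDSC. Sntb1, a syntrophin, went from 1.11 to -1.23 (0.012). These 3 passed whichever library was left out. C3, the central complement protein, went from 0.41 to -0.64 (0.0189), in 9 of 12 fits without 1 library.

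Phf15 (now Jade2), a subunit of histone acetyltransferase complexes, had a difference that shrank. It had 69.5, 114 and 133 counts in LD M-MDSC against 18.2, 22 and 25.8 in untreated M-MDSC, and 1104, 1917 and 1548 in LD PMN-MDSC against 2321, 2167 and 2000.1. Each population moved toward the other, and the difference shrank from -6.57 to -3.85 (change 2.71 ± 0.34 SE, limma adjusted p = 0.00225), whichever library was left out. Cxadr, a virus receptor and cell adhesion protein (-8.12 to -4.17), Inhba, the activin A subunit (-5.93 to -2.45), and Tex15 (-6.96 to -4.14) shrank as well. Their LD M-MDSC counts were low, at 2.0 to 19.6 for Cxadr and 51.8 to 115 for Inhba, and their changes passed in 6, 9 and 3 of 12 fits without 1 library. Thbs1, thrombospondin 1, appeared on the PMN-MDSC side (-3.06 in LD, -0.64 in Ctrl, 0.0266 for the change). It had 167, 184 and 217 counts in LD M-MDSC against 626.5, 1299 and 873 in untreated M-MDSC. Cobll1 appeared there too (-3.95 in LD, 0.47 in Ctrl, 0.0309), from 50, 182 and 130.4 counts in LD PMN-MDSC. The Thbs1 and Cobll1 changes passed in 7 and 5 of 12 fits without 1 library. Axl, a receptor for apoptotic cells, widened on the M-MDSC side from 2.10 to 4.02 (0.0482, in 2 of 12 fits). It had 1274, 1534 and 1398 counts in LD M-MDSC and 173, 51.5 and 68.7 in LD PMN-MDSC, and without both LD libraries 1 its change was 2.49 (0.000755).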

How the data were processed

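Total RNA of 12 libraries (4 groups of 3) was measured; per the labels it was depleted of ribosomal RNA. The authors deposited 1 table of 23479 genes, whose values are a signal, normalized counts, 1 column per library. Per the submitters' processing notes reads were handled with HTSeq 0.6.1, STAR 2.5.3a and DESeq2, in an order not given, on build mm10; whether counting used strand is not given in the sources used here, so overlapping and antisense genes cannot be told apart. From the values, each is a whole multiple of 1 factor per library (100% within 0.001 reads), so whole reads were recovered: 8906045 to 16242926 per library. The labels name no molecular identifiers.

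Computed here: limma 3.58.1 (R 4.3.3) on log2(value + 1), genes with a mean of at least 10 over 12 libraries, 4 group means, trended empirical Bayes, 8 residual degrees of freedom, Benjamini-Hochberg adjustment over 11122 genes. Alternatives were other pseudocounts, minima, scalings, weights, blocks, left-out libraries, edgeR 4.0.16 and DESeq2 1.42.0 on the recovered reads. Of the tested symbols, 11082 matched RefSeq (GRCm38.p6), the source of coordinates and promoters.

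The members and lists were chosen with earlier results of these data known. Genes are named by rule: the 10 largest LD differences each way (LD groups that do not overlap) and the 8 largest changes each way, both past the threshold with a group mean of at least 100 and no predicted genes, up to 4 members per list by LD adjusted p and up to 2 by the change, and a short set named in any case. Some genes are not reported here. A further 20 genes were named after their values were seen, among them Ltf, Itgb2l, Lgals3, H2-Ob, Cebpb, Il10ra, Sc4mol, Mpo, Cx3cr1 and Kit; members that complete a small count, such as Prss57, Cxcl9, Ccl5, H2-DMb2 and Cd86, were also named after their values were seen.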

Additional observations from a re-analysis of the deposited data

Results flagged for a closer look

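The population difference itself differed between lymphodepleted and untreated mice in 250 of 11122 genes, by limma's test of the difference of the differences (adjusted p under 0.05). Of the named genes, 47 were among them, and 19 of the 47 passed in all 12 fits that leave out 1 library. Positive values are changes toward M-MDSC on the log2 scale: H2-Eb2 (4.12), Cxadr (3.95), Abca1 (3.83), Vegfa (3.68), Inhba (3.47), Slc7a6 (3.17), H2-Ob (2.92), Ccl3 (2.90), Tex15 (2.83), Cd300e (2.79), Phf15 (2.71), Prc1 (2.60), Camp (2.42), Hdc (2.31), Ltf (2.27), Ccrl2 (2.17), Itgb2l (2.15), H2-Eb1 (2.01), Axl (1.92), Egr1 (1.68), Itgax (1.52), Cd274 (1.33), H2-Q4 (0.99), Il1rn (0.95), Zeb2 (0.89), Oasl1 (0.87), Il10ra (0.81), Slc16a3 (0.72), Slc2a1 (0.66), Tnfrsf1b (0.64), Csf1r (0.61) and Cebpb (0.59). Negative values are changes toward PMN-MDSC: Cobll1 (-4.42), Mmp8 (-2.78), Thbs1 (-2.42), Sntb1 (-2.33), Acvrl1 (-2.15), Mgst1 (-1.72), Timp2 (-1.70), Capg (-1.61), Ly6c2 (-1.44), Lyz2 (-1.34), Sc4mol (-1.06), Cybb (-1.05), C3 (-1.05), Srebf2 (-1.04) and Lgals3 (-1.03). H2-Q4 has near-identical class I copies, so its value is uncertain.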

How the results depend on the processing

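The 8323 LD and 8407 untreated calls and the 7180 held genes stayed within 1.5 times of these counts in all alternatives run, but the change counts did not. The 250 changes became 125 with no minimum level, 524 with sample weights, 699 with DESeq2, 536 with a replicate block by presumed animal and 773 without both LD libraries 1 (added after seeing the data), against 290 with edgeR. In the same order, widened genes (66) numbered 29, 185, 202, 137 and 322, and lost genes (35) 22, 93, 116, 96 and 117. Shrunken genes (101) numbered 46 with no minimum, 263 with DESeq2, 185 with the block and 167 without both libraries 1. Appearing genes (27) numbered 16 with no minimum, 41 with upper-quartile scaling, 58 with weights, 85 with DESeq2, 61 with the block and 100 without both libraries 1. Reversed genes (30) numbered 50 with weights, 61 with the block and 72 without both libraries 1. Leaving out 1 library gave 113 (without PMN-MDSC Ctrl library 2) to 832 changes (without PMN-MDSC LD library 1), 27 to 339 widened, 36 to 159 shrunken, 15 to 111 lost, 12 to 138 appearing and 18 to 87 reversed genes. The cause of these shifts was not tested. A replicate block by number gave 213 changes and 8277 LD calls. Same-numbered libraries had correlations of deviations of 0.208, 0.125 and 0.068 in LD and -0.037, 0.054 and 0.135 in untreated mice, so the numbers are not shown to pair the samples; in LD, though not in untreated mice, every M-MDSC library correlated best with its own number. The Sdha difference in LD went from -0.30 to 0.022 with upper-quartile scaling (limma adjusted p = 0.862). Genes near the floor of 3 reads depend most on the added 1.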
